A study of Mus musculus with 18 samples.

Results

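The genes described here encode potassium channel subunits and their close partners. They are all symbols beginning with Kcn in the count files, except Kcnj10 and Kcnj16, which encode the inward rectifiers of glia, and symbols ending in -ps or os. A summed count of at least 180 over 18 libraries was required. Of 99 such symbols, 2 were the glial inward rectifiers, 4 had an os ending and 20 fell under the count minimum, which left 73 genes out of 55291 symbols in the files. Of all symbols, 15909 reached the same summed count. Just inside the minimum were Kcnh8 with 187 counts and Kcnk7 with 192, and just outside it were Kcnmb1 with 174 and Kcnh6 with 129. Among the 73, Kcnq1ot1 is a long noncoding RNA transcribed antisense to Kcnq1 and encodes no channel.

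RNA came from the right hippocampus of male wild-type C57BL/6J mice, 6 weeks old at surgery, and all 3 groups carried AAV_DJ-GfaABC1D-EGFP-Rpl10a, injected into the right CA3. This virus places a GFP-tagged ribosomal protein under a promoter that is active in astrocytes, so that anti-GFP beads pull down ribosomes with their RNA (IP), while the input is total RNA of the same homogenate. The AAV control group was taken 2 weeks after the virus. The KA group received kainic acid (KA, 50 nL of 20 mM) in the right dentate gyrus 2 weeks after the virus and was taken 14 days later, and the PBS group received PBS after the virus. KA and AAV control thus also differed in the time since the virus and in a second injection. In that comparison these cannot be told apart from KA itself. Each group had 3 samples, each a pool of 3 to 4 mice, and each sample gave an IP and an input library. Sequencing took place in 3 runs: KA and AAV control #1 and #2 made up run 1, their #3 samples run 2, and PBS was alone in run 3, so that PBS and run 3 cannot be told apart.

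Potassium channels let potassium leave or enter cells along its gradient and set the resting potential, the shape of action potentials and the rate of firing. Voltage-gated (Kv) channels open on depolarisation, inward rectifiers (Kir) hold the resting potential, two-pore channels carry background current, and calcium- and sodium-activated channels open after activity. Neurons express most of these families, whereas hippocampal astrocytes rely mainly on Kir4.1 and some two-pore channels to take up and spread potassium. The study used KA as a model of mesial temporal lobe epilepsy and asked which genes change in hippocampal astrocytes, and the comparisons that follow put this question to the potassium channel genes.

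Library totals ranged from 7991681 to 16032180 counts. The 73 genes together took 0.118% to 0.151% of the counts in AAV control IP, 0.118% to 0.212% in PBS IP and 0.207% to 0.234% in KA IP, against 0.226% to 0.300% over the 9 input libraries. Of these counts, Kcne1l alone had 8364, 7399 and 6566 in KA IP, out of 25387, 24370 and 22693 for the 73 genes. In AAV control IP it had 518, 518 and 762, out of 13161, 14480 and 15088. All 8 astrocyte markers were higher in IP than in input in AAV control (median log2 fold change 3.28), and all 6 neuron markers were lower (median -2.24). AAV control #3 stood apart: it had the lowest share of potassium channel counts among the 9 input libraries, and its summed choroid plexus marker level was 15.5 FPKM in input, against 2976 in AAV control #1. FPKM scales the count of a gene by its length and by the library total, and a gene was called changed at an adjusted p under 0.05 (edgeR quasi-likelihood test). The pools were compared, so that each p measures the spread between pools. Fewer cells of a type and less RNA per cell cannot be told apart in such samples.

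**Figure D1:**
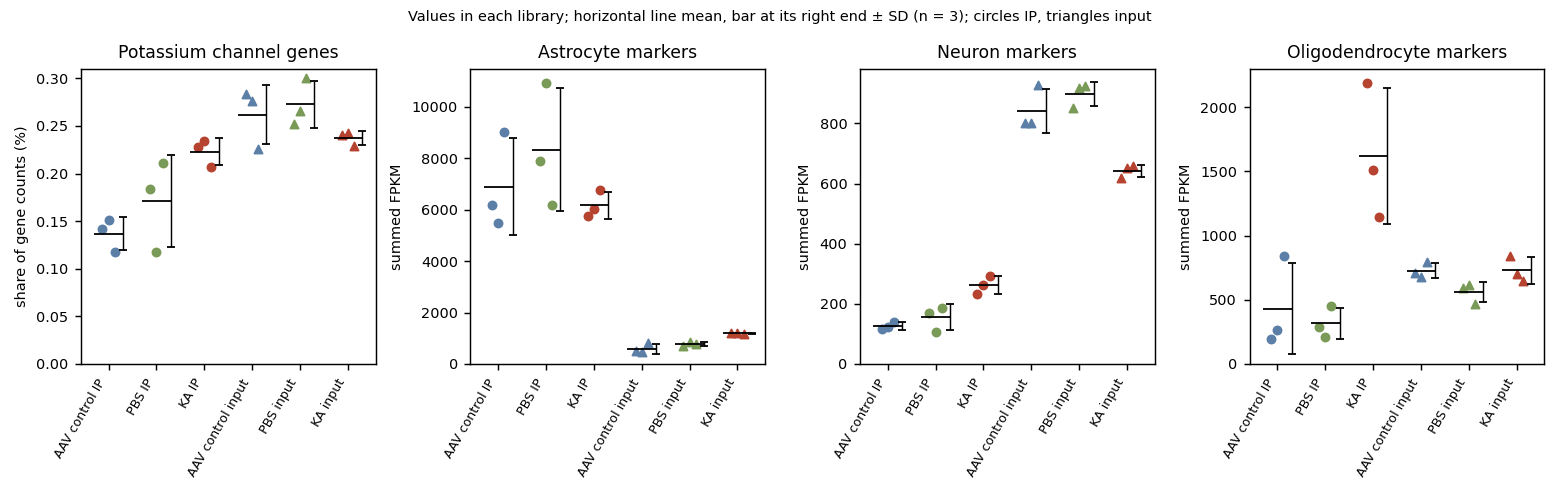
Share of counts taken by the 73 potassium channel genes (%) and summed FPKM of 8 astrocyte, 6 neuron and 4 oligodendrocyte markers in each library (circles IP, triangles input; line mean, bar SD, n = 3 per group). The potassium channel share of the KA IP libraries (0.207% to 0.234%) lay above that of AAV control IP (0.118% to 0.151%), and their neuron marker sum (233 to 294 FPKM) lay above AAV control IP (116 to 141 FPKM) and PBS IP (107 to 188 FPKM). Within the potassium channel share, Kcne1l alone had 8364, 7399 and 6566 counts in KA IP, against 518, 518 and 762 in AAV control IP.

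**Figure D2:**
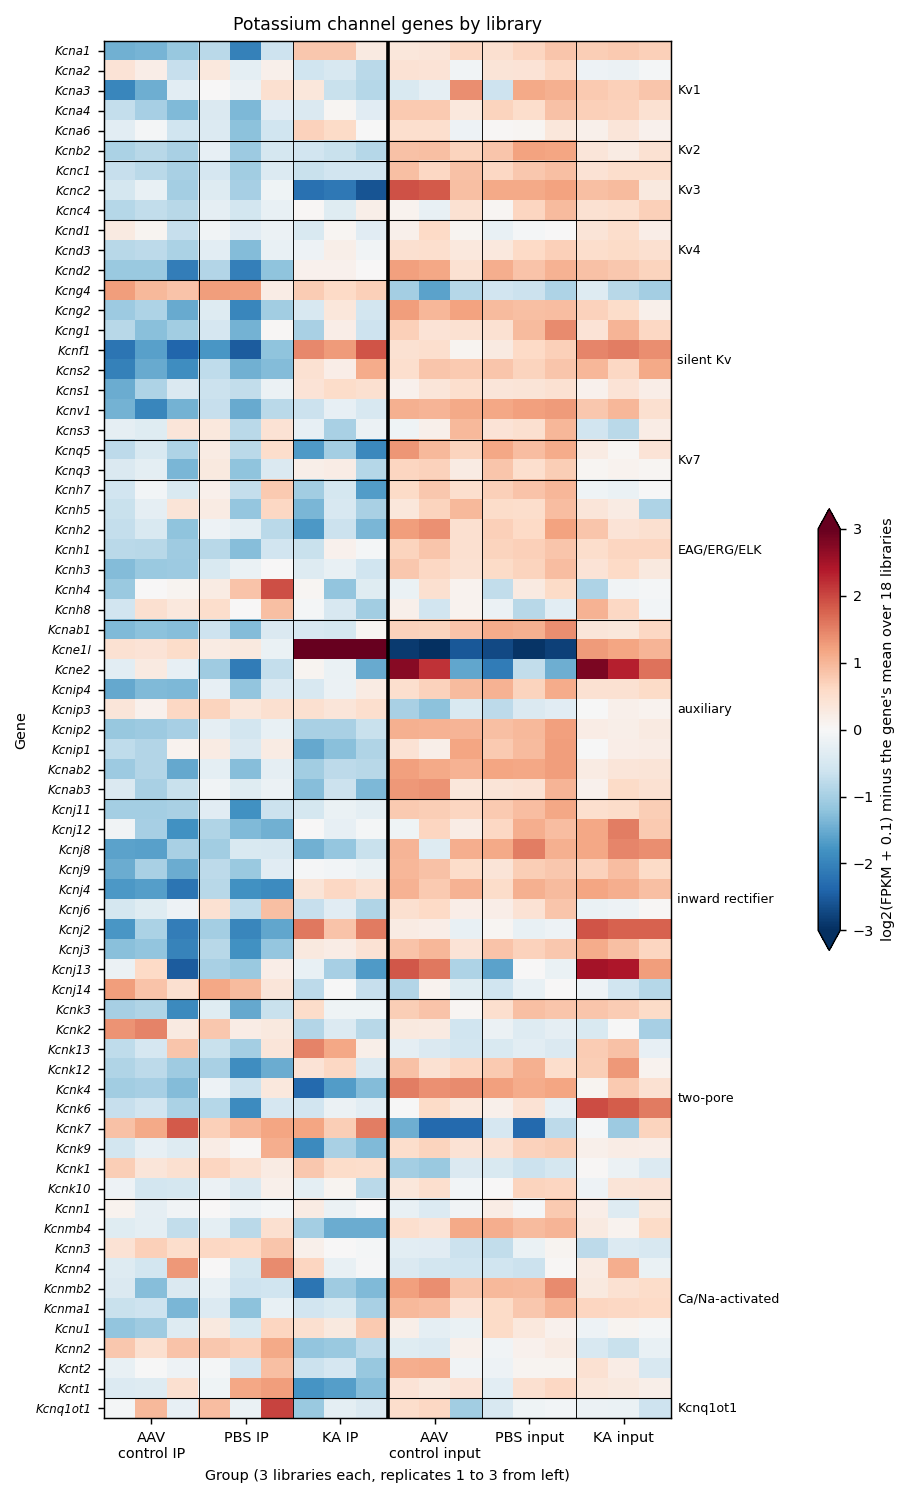
Level of 69 of the 73 genes (rows, by subfamily) in the 18 libraries (columns), as log2(FPKM + 0.1) minus the mean of the gene over 18 libraries; colours end at 3 in either direction. The row of Kcne1l is dark red in KA IP and blue in the inputs of AAV control and PBS, and the rows of Kcnf1 and Kcnj2 are red in KA IP and in KA input.

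Without KA, most potassium channel genes were lower in the astrocyte ribosome fraction than in whole tissue. In AAV control, 10 of the 73 genes were higher in IP than in input, where 17.9% of all genes tested were higher, and 42 were lower, where 17.7% of all genes were lower. Their median log2 fold change of IP over input was -1.31, while that of all genes was close to 0. In PBS, 13 were higher (27.4% of all genes) and 45 were lower (25% of all genes), with a median of -0.98. In AAV control, 7 of 10 inward rectifiers and 5 of 8 silent Kv subunits were lower in IP.

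Among the genes higher in IP in AAV control were Kcne1l, Kcng4, Kcnip3, Kcnj14, Kcnk1, Kcnk2, Kcnk7, Kcnn2 and Kcnn3, and these were also higher in IP in PBS. Kcnk1, which encodes the two-pore channel TWIK-1 of astrocytes, had the highest level of the 73 genes in AAV control IP, at 54.9, 42.8 and 45.9 FPKM in the 3 samples, against 16.1, 15.2 and 24.3 in input. Its log2 fold change was 1.50 ± 0.27 (SE, adjusted p = 0.00345). Kcnip3, a calcium-binding partner of Kv4 channels that also acts as a transcriptional repressor, had 31.1, 26.3 and 37.0 FPKM in IP and 12.2, 10.2 and 17.5 in input. The libraries of IP and input did not overlap for either gene, and both calls were lost without AAV control #1 (adjusted p = 0.0762 and 0.101).

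Kcnk2, the mechanosensitive two-pore channel TREK-1, had 11.2, 12.4 and 5.34 FPKM in AAV control IP and 5.42, 5.32 and 2.88 in input (log2 fold change 1.25 ± 0.32, adjusted p = 0.0168). Kcnn2 and Kcnn3, the small-conductance calcium-activated channels SK2 and SK3, were higher in IP by 1.07 ± 0.26 (adjusted p = 0.0147) and 1.24 ± 0.19 (adjusted p = 0.00169) on the log2 scale. The calls of Kcnk2 and Kcnn2 were lost without AAV control #1 or #2 (highest adjusted p = 0.125 and 0.172). Kcng4, a silent Kv subunit, had a mean of 3.62 FPKM in IP and 0.728 in input. Kcnk7, a two-pore subunit without known current, had 12, 15 and 34 counts in AAV control IP and 1, 0 and 0 in input, so that no fold is given. Of the 10, Kcne1l, Kcng4, Kcnk7 and Kcnn3 stayed called without any single sample, its IP and input library being left out together. The total of 52 calls in AAV control became 31 without AAV control #1.

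Among the genes lower in IP in AAV control, Kcnd2, Kcnip2, Kcnab2 and Kcnj3 had the highest input levels. Kcnd2, the A-type channel Kv4.2 of dendrites, had 3.05 to 6.01 FPKM in AAV control IP and 17.9 to 30.9 in input. Kcnip2, which binds Kv4 channels and aids their transport, had means of 5.70 and 25.1 FPKM. Kcnab2, a cytoplasmic Kv beta subunit, had 5.08 and 25.1 FPKM, and Kcnj3, the G-protein-gated inward rectifier GIRK1, had 4.69 and 22.0 FPKM. Their log2 fold changes of IP over input lay between -2.23 and -1.98. Kcna2, the axonal Kv1.2, had means of 11.5 and 13.5 FPKM and did not pass the test (log2 fold change -0.08).

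In the astrocyte ribosome fraction of KA, more potassium channel genes rose than fell against AAV control, whereas similar numbers rose and fell against PBS. Against AAV control, 24 of the 73 genes rose in IP, where 10.3% of all genes tested rose, and 5 fell, where 7.67% of all genes fell. The median log2 fold change was 0.34 for the 73 genes and -0.03 for all genes. Of the 24 that rose, 12 stayed called without any single library, among them Kcna1, Kcnd2, Kcnd3, Kcne1l, Kcnf1, Kcnip4, Kcnj2, Kcnj3, Kcnj4, Kcnj9 and Kcns2. The other 12 (Kcna4, Kcna6, Kcnab1, Kcnc4, Kcng2, Kcnh1, Kcnh3, Kcnk3, Kcnk12, Kcns1, Kcnu1 and Kcnv1) lost the call without at least 1 library, with highest adjusted p between 0.0551 (Kcnab1) and 0.151 (Kcnh1). The total of 29 calls became 18 without KA #2, 19 without AAV control #1 and 19 without AAV control #2. In the same IP libraries the astrocyte markers were lower on balance, with 4 of 8 lower (Slc1a2 at -1.34, Slc1a3 at -1.12, Gja1 at -1.34 and Gjb6 at -0.92) and 2 higher (Gfap at 2.58 and Aqp4 at 1.08), and a median log2 fold change of -1.02. Against PBS, 3 were lower and 2 higher, with a median of -0.56. The part of these markers in the potassium channel result was not tested.

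Kcne1l (the Kcne5 gene) rose in both fractions against both controls. It encodes a small single-pass subunit that slows or silences Kv7 and other Kv channels. The gene lies on chromosome X from 142304752 to 142306294 on the minus strand (GRCm38). In IP it had 36.2, 35.1 and 38.6 FPKM in AAV control, 31.0, 32.1 and 22.7 in PBS and 487, 460 and 388 in KA. In input it had 3.49, 2.04 and 4.38 FPKM in AAV control, 3.94, 3.31 and 3.70 in PBS and 64.0, 59.8 and 53.3 in KA. All KA libraries lay far above all control libraries of the same fraction, and in KA IP this gene was the most abundant of the 73. The log2 fold change against AAV control was 3.73 ± 0.21 in IP (adjusted p = 3.94e-05) and 4.11 ± 0.28 in input (adjusted p = 0.000166), and against PBS it was 4.08 ± 0.32 in IP (adjusted p = 1.1e-06) and 3.98 ± 0.13 in input (adjusted p = 3.72e-09). Its IP was 3.23 log2 units above input in KA, 3.60 in AAV control and 3.06 in PBS, and the ratio did not pass the test between KA and either control (difference -0.40 ± 0.33 against AAV control and 0.12 ± 0.31 against PBS).

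Kcnf1 and Kcnj2 also rose in both fractions, from low levels in control IP. Kcnf1 encodes a silent Kv subunit (Kv5.1) that alters Kv2 channels, and lies on chromosome 12 from 17172100 to 17176888. It had 1.08, 1.64 and 0.929 FPKM in AAV control IP, 1.51, 0.859 and 2.21 in PBS IP and 14.4, 12.9 and 19.9 in KA IP. In input it had 7.32, 7.52 and 5.54 FPKM in AAV control, 6.38, 8.09 and 8.73 in PBS and 14.8, 15.5 and 13.99 in KA. The KA libraries were thus the highest in both fractions, and the difference was the larger in IP: the log2 fold change against AAV control was 3.87 ± 0.31 in IP (adjusted p = 0.000177) and 1.12 ± 0.13 in input (adjusted p = 0.00183). Against PBS the corresponding values were 3.60 ± 0.29 (adjusted p = 1.28e-06) and 0.90 ± 0.10 (adjusted p = 4.89e-05).

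Kcnj2 encodes Kir2.1, a strong inward rectifier of neurons, microglia and vessels, and lies on chromosome 11 from 111066164 to 111076821. It had 0.297, 0.596 and 0.215 FPKM in AAV control IP, 0.562, 0.241 and 0.350 in PBS IP and 3.89, 2.31 and 3.85 in KA IP. In input it had 1.47, 1.44 and 1.04 FPKM in AAV control, 1.28, 1.04 and 1.10 in PBS and 4.84, 4.42 and 4.47 in KA. The log2 fold change against AAV control was 3.36 ± 0.40 in IP (adjusted p = 0.00105) and 1.80 ± 0.17 in input (adjusted p = 0.000519). Microglia markers rose with it in input, 6 of 6 against AAV control, with a summed level of 643 to 1162 FPKM in KA input against 71.6 to 110 in AAV control, and their part in the result was not tested.

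Kcne1l, Kcnf1 and Kcnj2 were the 3 genes that rose in IP and in input against both controls. The sequences before their RefSeq start sites (GRCm38.p6, 5′ to 3′ on the strand of the gene) are shown because these genes moved together; the first is shorter as it stops at the outermost annotated start. Capitals mark the GC box GGGCGG on either strand and the E-box CACGTG. They lie at chrX:142306295-142306448 on the minus strand, chr12:17176889-17177138 on the minus strand and chr11:111065914-111066163 on the plus strand.
Kcne1l: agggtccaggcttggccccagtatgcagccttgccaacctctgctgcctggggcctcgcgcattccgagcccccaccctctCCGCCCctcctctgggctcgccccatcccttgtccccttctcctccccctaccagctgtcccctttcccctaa
Kcnf1: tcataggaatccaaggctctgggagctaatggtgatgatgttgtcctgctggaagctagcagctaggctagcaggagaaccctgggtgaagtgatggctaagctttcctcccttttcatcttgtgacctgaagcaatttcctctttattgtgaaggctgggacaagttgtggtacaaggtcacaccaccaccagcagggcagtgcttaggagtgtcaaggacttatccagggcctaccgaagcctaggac
Kcnj2: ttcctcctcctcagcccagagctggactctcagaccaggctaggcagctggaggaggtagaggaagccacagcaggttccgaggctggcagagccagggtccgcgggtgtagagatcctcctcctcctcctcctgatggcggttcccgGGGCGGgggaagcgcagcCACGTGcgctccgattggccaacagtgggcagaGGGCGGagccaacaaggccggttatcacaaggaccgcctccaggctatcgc
The GC content of these stretches was 67.5%, 51.2% and 65.6%. A GC box was present before Kcne1l and Kcnj2 and not before Kcnf1, and 32.7% of 32851 RefSeq promoters held one in the 250 bases before the start. The E-box in the Kcnj2 stretch is a motif that 6.02% of all promoters held. The activity-related motifs AP-1 (TGANTCA), CRE (TGACGTCA) and STAT (TTCNNNGAA), which read the same on both strands and were searched in the same windows, had no match before any of the 3 genes and were present in 6.75%, 1.55% and 7.02% of all promoters. Of the 73 genes, 51 matched a RefSeq promoter.

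**Figure D3:**
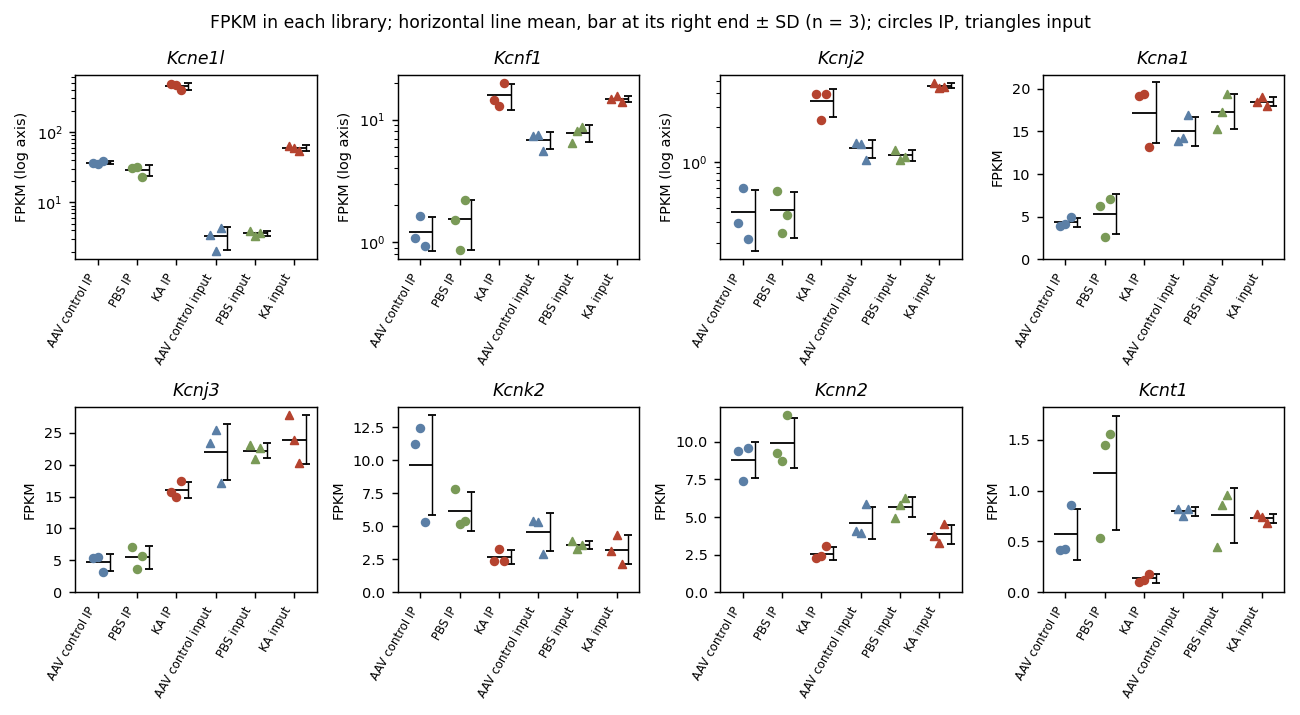
FPKM of 8 genes in each of the 18 libraries (circles IP, triangles input; line mean, bar SD, n = 3; Kcne1l, Kcnf1 and Kcnj2 on a log axis). Kcne1l, Kcnf1 and Kcnj2 were highest in KA in both fractions, Kcna1 and Kcnj3 were higher in KA IP than in control IP with no call in input, and Kcnk2, Kcnn2 and Kcnt1 were lower in KA IP than in control IP.

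Most other genes that rose in KA IP did so without a call in input. Kcna1, the axonal Kv1.1 whose loss causes epilepsy in mice, had 3.97, 4.11 and 4.92 FPKM in AAV control IP, 6.25, 2.62 and 7.05 in PBS IP and 19.2, 19.3 and 13.1 in KA IP. In input its means were 15.0, 17.3 and 18.5 FPKM in AAV control, PBS and KA. The KA IP libraries did not overlap the control IP libraries, with a log2 fold change of 2.10 ± 0.20 against AAV control (adjusted p = 0.000377) and 1.89 ± 0.26 against PBS (adjusted p = 0.000126). Kcna4 and Kcna6 rose by 0.95 ± 0.24 and 0.90 ± 0.20 against AAV control, so that 3 of 5 Kv1 genes rose beside 10.3% of all genes. Against PBS, Kcna1 and Kcna6 rose (19.3% of all genes rose), Kcna4 was not called, and Kcna2 fell (20.3% of all genes fell), a call lost without KA #1, KA #2, KA #3, PBS #1 or PBS #2 (highest adjusted p = 0.190).

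Of the 8 silent Kv subunits, which form no channel alone, 5 rose in IP against each control (10.3% of all genes rose against AAV control and 19.3% against PBS) and none fell. Beside Kcnf1, Kcns2 went from a mean of 0.523 FPKM in AAV control and 0.873 in PBS to 3.25 in KA (log2 fold change 2.80 ± 0.35, adjusted p = 0.00137, and 2.07 ± 0.33, adjusted p = 0.000381). Kcns1, Kcnv1 and Kcng2 rose by 1.58, 1.35 and 1.15 against AAV control. Against PBS the call of Kcnv1 was lost without any 1 of the KA samples, PBS #2 or PBS #3 (highest adjusted p = 0.161) and that of Kcng2 without KA #2, PBS #2 or PBS #3 (highest adjusted p = 0.157). Kcng4, the silent subunit that was higher in IP without KA, had 2.97, 2.65 and 2.88 FPKM in KA IP and 4.25, 3.44 and 3.18 in AAV control IP, which did not pass the test (log2 fold change -0.21).

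The Kv4 genes carry the A-type current, and 2 of 3 rose in IP against each control, beside 10.3% and 19.3% of all genes. Kcnd2 had 6.01, 5.95 and 3.05 FPKM in AAV control IP, 7.04, 3.08 and 5.60 in PBS IP and 14.2, 14.3 and 13.1 in KA IP (log2 fold change 1.63 ± 0.24 and 1.59 ± 0.24, adjusted p = 0.00296 and 0.000262). Kcnd3 rose by 1.0 ± 0.17 against AAV control and by 0.72 ± 0.22 against PBS, the latter lost without KA #2 or PBS #2 (highest adjusted p = 0.0738). Kcnip4, a Kv4 partner, rose by 1.48 ± 0.27 against AAV control (adjusted p = 0.00686) and differed by 0.66 from PBS without passing the test.

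Among inward rectifiers, 4 of 10 rose and 1 fell in IP against AAV control (10.3% and 7.67% of all genes), and 5 rose and 2 fell against PBS (19.3% and 20.3% of all genes), so that the decreases were near the share of all genes. Against PBS the rise of Kcnj12 was lost without KA #1, KA #3, PBS #2 or PBS #3 (highest adjusted p = 0.0701). The decrease of Kcnj6 was lost without KA #1, KA #3, PBS #1 or PBS #3 (highest adjusted p = 0.180), and that of Kcnj14 without KA #1, PBS #1 or PBS #2 (highest adjusted p = 0.0763). Kcnj3, the GIRK1 subunit through which G-protein-coupled receptors quiet neurons, had 5.36, 5.58 and 3.14 FPKM in AAV control IP, 7.11, 3.58 and 5.70 in PBS IP and 15.8, 15.0 and 17.4 in KA IP. Its input levels overlapped between groups (means of 22.0, 22.2 and 24.0 FPKM). The log2 fold change was 1.94 ± 0.24 against AAV control (adjusted p = 0.00128) and 1.74 ± 0.24 against PBS (adjusted p = 0.000121). Its partner Kcnj9 (GIRK3) rose by 1.37 ± 0.20 and 0.81 ± 0.19. Kcnj4, which encodes Kir2.3, went from a mean of 1.01 FPKM in AAV control and 1.37 in PBS to 5.44 in KA (2.58 ± 0.25, adjusted p = 0.000445, and 2.11 ± 0.33, adjusted p = 0.000333).

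Of the 10 two-pore channel genes, 2 rose and 1 fell in KA IP against AAV control (10.3% and 7.67% of all genes), and 7 were not called. Against PBS, 3 rose and 3 fell (19.3% and 20.3% of all genes), and 4 were not called. Kcnk12, a poorly conducting subunit, and Kcnk3, the acid-sensitive TASK-1, rose against AAV control by 1.36 ± 0.32 and 1.63 ± 0.36, and Kcnk2 fell. Kcnk2 had 11.2, 12.4 and 5.34 FPKM in AAV control IP, 7.79, 5.15 and 5.42 in PBS IP and 2.34, 3.26 and 2.40 in KA IP. All KA libraries were below all control libraries, with a log2 fold change of -1.70 ± 0.29 (adjusted p = 0.00593) against AAV control and -1.05 ± 0.23 (adjusted p = 0.00353) against PBS. In input, Kcnk2 had mean levels of 4.54, 3.59 and 3.22 FPKM in AAV control, PBS and KA, with no call. Kcnk1 had means of 47.9, 45.3 and 51.1 FPKM in the IP of AAV control, PBS and KA, and its log2 fold changes of 0.23 and 0.31 did not pass the test.

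Of the 10 genes grouped here as calcium- and sodium-activated channels, 2 fell in KA IP against AAV control (7.67% of all genes) and Kcnu1 rose (log2 fold change 1.79). Kcnu1 had 6, 7 and 18 counts in AAV control IP. Its call was lost without any 1 of the KA samples, AAV control #1 or AAV control #2 (highest adjusted p = 0.098). Against PBS, 5 of the 10 genes fell (20.3% of all genes) and none rose. Of these 5, the call of Kcnn3 was lost without any 1 of the KA samples, PBS #1 or PBS #2 (highest adjusted p = 0.171), that of Kcnt2 without any 1 of the KA samples or PBS #3 (highest adjusted p = 0.177) and that of Kcnmb4 without KA #2 or PBS #3 (highest adjusted p = 0.0822). Kcnn2 had 9.36, 7.39 and 9.58 FPKM in AAV control IP, 9.28, 8.71 and 11.8 in PBS IP and 2.29, 2.39 and 3.04 in KA IP. The log2 fold change was -1.62 ± 0.23 (adjusted p = 0.00253) and -1.75 ± 0.21 (adjusted p = 4.53e-05), and without KA this gene was higher in IP than in input. Kcnt1, the sodium-activated channel Slack, had 0.420, 0.429 and 0.863 FPKM in AAV control IP, 0.532, 1.45 and 1.55 in PBS IP and 0.104, 0.121 and 0.183 in KA IP. It rested on few reads, with 11, 12 and 19 counts in KA IP, and fell by 1.93 on the log2 scale against AAV control (adjusted p = 0.0210), a call lost without KA #1 or KA #2 (highest adjusted p = 0.0875), and by 2.92 against PBS (adjusted p = 0.000297).

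Kcnc2, the Kv3.2 channel of fast-spiking interneurons, had 2.18, 2.74 and 1.51 FPKM in AAV control IP, 2.42, 1.55 and 2.91 in PBS IP and 0.591, 0.646 and 0.447 in KA IP (log2 fold change -1.79 ± 0.25, adjusted p = 0.00242, and -1.84 ± 0.25, adjusted p = 0.000109). The interneuron gene Sst fell by 3.27 on the log2 scale against AAV control, Pvalb rose by 1.65 and Npy rose by 4.27, and their part in the Kcnc2 result was not tested. Kcnj14, which encodes Kir2.4, went from a mean of 1.82 FPKM in AAV control IP to 0.651 in KA IP (-1.34 ± 0.36, adjusted p = 0.0340), and this call was lost without any of KA #1, KA #2, KA #3, AAV control #1 or AAV control #2 (highest adjusted p = 0.127).

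With the sample number as a block, since samples of the same number in the KA and AAV control groups shared a run, the genes that fell against AAV control in IP went from 5 to 9. The 4 that were gained were Kcnh7 (log2 fold change -0.62, adjusted p = 0.0448), Kcnk9 (-1.03, adjusted p = 0.0155), Kcnq1ot1 (-0.79, adjusted p = 0.0475) and Kcnq5 (-0.80, adjusted p = 0.0352). Kcnq3 (0.70, adjusted p = 0.00569) and Kcnj11 (0.87, adjusted p = 0.0376) were gained among those that rose.

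Against PBS, 21 of the 73 genes rose in KA IP (19.3% of all genes tested) and 19 fell (20.3% of all genes), and the 2 comparisons share the KA libraries. The median log2 fold change was 0.10, against -0.03 for all genes. Of these calls, 13 of the 21 that rose and 8 of the 19 that fell stayed without any single library. Kcnq5, a subunit of the M-current that restrains repetitive firing, had 2.19, 1.002 and 2.66 FPKM in PBS IP and 0.491, 0.849 and 0.403 in KA IP (-1.55 ± 0.32, adjusted p = 0.00215), beside 1.01, 1.31 and 0.914 in AAV control IP.

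Kcnk9, the acid-sensitive channel TASK-3, had 1.47, 1.27 and 2.77 FPKM in PBS IP and 0.256, 0.585 and 0.438 in KA IP (-1.89 ± 0.31, adjusted p = 0.000473). In AAV control IP it had 0.815, 1.04 and 0.933 FPKM, below all PBS IP libraries. Kcnk4, the mechanosensitive TRAAK, fell by 1.91 ± 0.52 on the log2 scale against PBS (adjusted p = 0.0107), on 3, 7 and 11 counts in KA IP. Its mean was 0.646 FPKM in PBS IP, 0.274 in AAV control IP and 0.145 in KA IP. Kcnip1 (-1.27 ± 0.35, adjusted p = 0.0117) and Kcnh7 (-1.09 ± 0.29, adjusted p = 0.0106) fell too. Kcnip1 was lost without KA #1 (adjusted p = 0.0559) and Kcnh7 without PBS #3 (adjusted p = 0.0708). Kcnq1ot1 fell by 1.61 ± 0.40 (adjusted p = 0.00628), with a spread of 2.21, 0.946 and 4.84 FPKM in PBS IP. Without a block, none of the genes of this paragraph was called against AAV control in IP.

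No gene of the 73 was called between the 2 controls. PBS against AAV control gave 0 calls in IP (0.0189% of all genes tested rose and 0 fell) and 0 in input (0 of all genes in either direction), by edgeR and by DESeq2. At an unadjusted p under 0.05 there were 11 of the 73 genes in IP and 7 in input, beside 1674 and 1197 of the 15909 genes tested. Without AAV control #3 the same comparisons gave 7 genes in IP and 19 in input at an adjusted p under 0.05, and the share of all genes in those fits is not given. PBS IP #2 had lower levels than PBS IP #1 and #3 for many of the genes that rose after KA, such as Kcna1, Kcnd2 and Kcnj3 above.

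In input, which holds the RNA of the whole tissue, the potassium channel genes moved mainly down. Against AAV control, 4 rose (5.37% of all genes rose) and 7 fell (1.26% of all genes fell), with a median log2 fold change of -0.14. Against PBS, 9 rose (15.9% of all genes) and 24 fell (10.9% of all genes), with a median of -0.21. Neuron markers were also lower, with summed levels of 618 to 658 FPKM in KA input, 800 to 926 in AAV control input and 852 to 924 in PBS input, and 3 of 6 fell against PBS and 0 of 6 against AAV control. Their part in the result was not tested.

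Among the genes that fell against both controls in input were Kcnab2, Kcng2, Kcnh7, Kcnip2, Kcnk4 and Kcnq5. Kcnip2 had 25.4, 25.2 and 24.7 FPKM in AAV control input, 22.8, 24.0 and 28.4 in PBS input and 14.1, 13.7 and 14.6 in KA input. The KA libraries lay below all 6 controls (-0.84 ± 0.14, adjusted p = 0.00798, and -0.85 ± 0.11, adjusted p = 9.4e-05). Kcnab2 showed the same order with 26.7, 25.0 and 23.4, then 26.1, 25.4 and 27.4, then 13.6, 14.6 and 15.0 FPKM (-0.81 ± 0.14, adjusted p = 0.0110, and -0.90 ± 0.11, adjusted p = 0.000115). In IP neither gene passed the test against either control. Kcnh7, an ERG channel, fell by 0.77 ± 0.15 and 1.02 ± 0.11 on the log2 scale.

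All 7 decreases against AAV control lost the call without at least 1 library, with highest adjusted p from 0.0673 for Kcnip2 to 0.197 for Kcnq5. The total of 11 calls against AAV control in input became 3 without KA #1, 3 without KA #2, 5 without AAV control #1, 6 without AAV control #2 and 29 without AAV control #3. With the sequencing run as a covariate it was 24, and within run 1 alone (2 against 2, chosen after seeing the data) it was 38, of which 14 rose and 24 fell. With the sample number as a block it was 16. Against PBS, 12 of the 24 decreases stayed called without any single library, among them Kcnab2, Kcnip2, Kcnh7, Kcnb2, Kcna2 and Kcnq5.

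Beside Kcne1l, Kcnf1 and Kcnj2, only Kcnk6 rose in input against both controls. This two-pore channel (TWIK-2), known from microglia and other immune cells, had 0.272, 0.454 and 0.364 FPKM in AAV control, 0.312, 0.403 and 0.213 in PBS and 1.34, 1.21 and 0.992 in KA input. The log2 fold change was 1.66 ± 0.30 (adjusted p = 0.0127) and 1.88 ± 0.32 (adjusted p = 0.00112), and in IP the gene had 0 to 10 counts in each library. The call against AAV control was lost without KA #1, KA #2 or AAV control #1 (highest adjusted p = 0.0767). Kcnk13 (THIK-1), also a channel of microglia, rose in input against PBS by 0.96 ± 0.31 (adjusted p = 0.0350), a call lost without KA #1, KA #2 or any of the 3 PBS samples (highest adjusted p = 0.150). It rose in IP against PBS too, a call that stayed without any single library (log2 fold change 1.38 to 2.05, highest adjusted p = 0.025). Its levels were 3.38, 2.65 and 1.29 FPKM in KA IP and 0.682, 0.506 and 1.50 in PBS IP. Against AAV control it was not called in either fraction.

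Kcne2 and Kcnj13, channel genes of the choroid plexus epithelium, rose in input against PBS and not against AAV control. Kcnj13, which encodes Kir7.1, had 4.54, 3.71 and 0.563 FPKM in AAV control input, 0.314, 1.17 and 1.01 in PBS input and 7.03, 6.69 and 2.93 in KA input (2.68 ± 0.41 against PBS, adjusted p = 0.000495). Kcne2 had 39, 31 and 1 counts in AAV control input, 0, 3 and 1 in PBS input and 51, 35 and 22 in KA input, so that no fold is given against PBS. AAV control #3 and the PBS samples were low for both genes. The choroid plexus markers were low in the same libraries, with summed levels of 2484 to 4473 FPKM in KA input, 15.5 to 2976 in AAV control input and 18.2 to 289 in PBS input, and their part in the result was not tested.

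**Figure D4:**
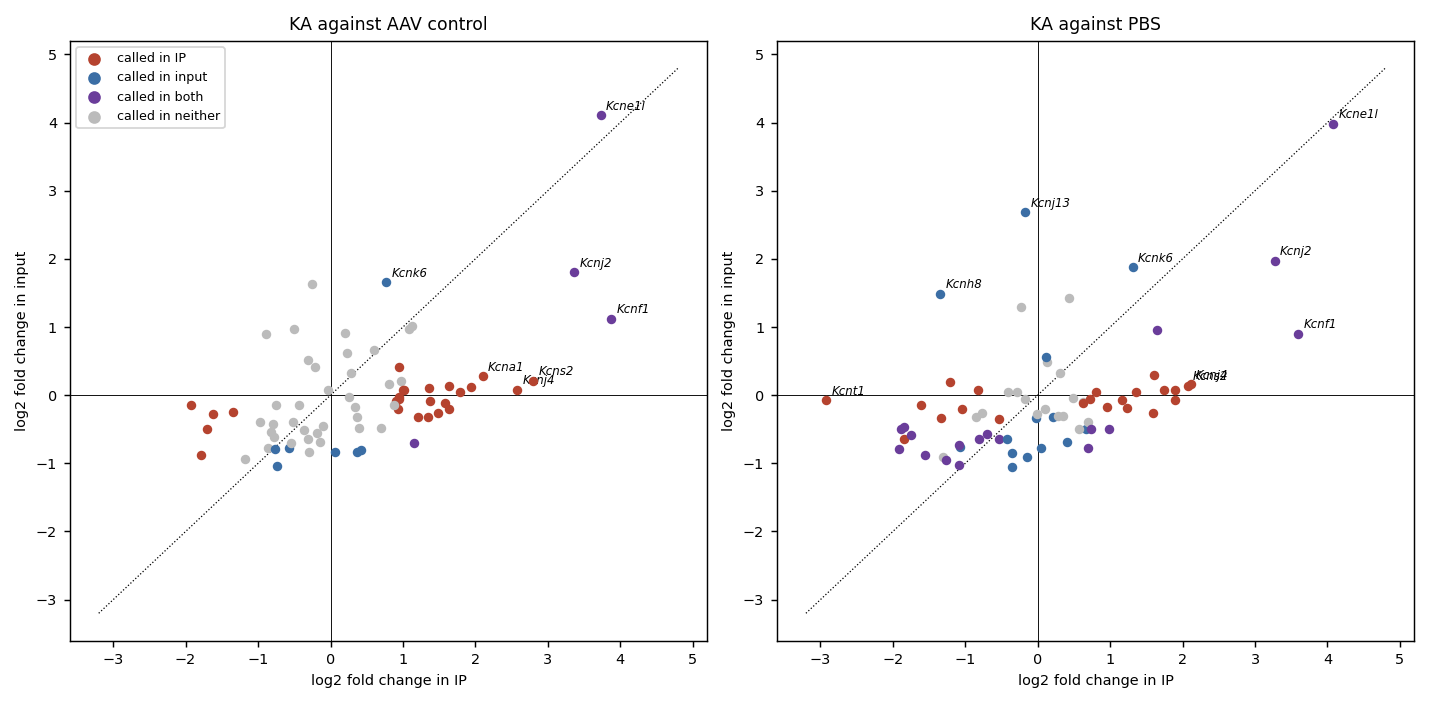
Log2 fold change in IP (horizontal) and in input (vertical) of KA against AAV control (left) and against PBS (right); each point is a gene, the dotted line marks equal change, and colour shows where the gene was called. Kcnk7 (left) and Kcne2 (right), with at most 3 counts in every library of a group, are left out. Kcne1l lies near the line of equal change, Kcnf1 and Kcnj2 lie to the right of it, and most genes called in IP lie close to 0 in input.

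The IP to input ratio was tested as the difference between KA and each control of the fold change of IP over input. Against AAV control the ratio rose for 23 of the 73 genes (5.27% of all genes tested) and fell for 2 (3.65% of all genes), with a median of 0.34. Against PBS it rose for 22 (10.9% of all genes) and fell for 7 (11.1% of all genes), with a median of 0.22 beside -0.11 for all genes. Of the 24 genes that rose in IP against AAV control, 19 had a raised ratio, 20 had no call in input and 20 were lower in IP than in input in AAV control. Of the 21 that rose against PBS, 18 had a raised ratio, 14 had no call in input and 19 were lower in IP in PBS. Since the ratio and the IP comparison use the same IP libraries, these counts describe the genes and are not a second test.

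In the KA samples, 7 of the 73 genes were higher in IP than in input (17.3% of all genes) and 28 were lower (13.7% of all genes), with a median of -0.37. With the homogenate as a block these became 11 and 34, and the total of 35 became 20 without KA #1. Kcnf1 went from a log2 fold change of IP over input of -2.33 in AAV control and -2.33 in PBS to 0.43 in KA, a difference of 2.74 ± 0.32 (adjusted p = 0.000507) and 2.70 ± 0.31 (adjusted p = 4.76e-05). Kcnj4 went from -2.77 and -2.26 to -0.27, and Kcna1 from -1.64 and -1.70 to 0.20. Kcnk2 (1.25, 0.84 and 0.05) and Kcnn2 (1.07, 0.85 and -0.26) went the other way. The markers of cell types moved beside these ratios: that of the astrocyte markers fell for 6 of 8 against each control (medians of -1.48 and -1.26), and that of the neuron markers rose for 4 of 6 against AAV control and 5 of 6 against PBS (medians of 1.26 and 1.31). The oligodendrocyte marker ratio rose for 2 of 4 against AAV control and 4 of 4 against PBS (medians of 1.88 and 2.19). In AAV control, PBS and KA, the median log2 fold change of IP over input was 3.28, 2.94 and 1.87 for the astrocyte markers. It was -2.24, -2.29 and -0.96 for the neuron markers and -0.47, -0.79 and 1.44 for the oligodendrocyte markers. The part of these markers in the ratios of the potassium channel genes was not tested. For Kcnn2 the difference was -1.35 ± 0.36 (adjusted p = 0.0355) against AAV control and -1.17 ± 0.25 (adjusted p = 0.00499) against PBS. The former was lost without KA #1, KA #2, KA #3, AAV control #1 or AAV control #2 (highest adjusted p = 0.161). For Kcnk2 the difference did not pass the test against either control, at -1.21 (adjusted p = 0.0987) and -0.83 (adjusted p = 0.0775). It passed only with the homogenate as a block, at -1.17 (adjusted p = 0.000465) and -0.79 (adjusted p = 0.0143).

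The genes that stayed called in the ratio without any single sample (IP and input together) were Kcna1, Kcnd2, Kcnf1, Kcng2, Kcnip4, Kcnj3, Kcnj4, Kcnj9, Kcns2 and Kcnv1 against AAV control. The total of 25 became 16 without KA #1, 13 without KA #2, 11 without AAV control #1 and 16 without AAV control #2, and 32 without AAV control #3. With the homogenate as a block it became 36, and the genes with a lower ratio went from 2 to 6. The lower ratio of Kcnt1 against AAV control was lost without KA #1, KA #2, AAV control #1 or AAV control #2 (highest adjusted p = 0.178). Against PBS the total of 29 became 18 without KA #2 and 17 without PBS #3.

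**Figure D5:**
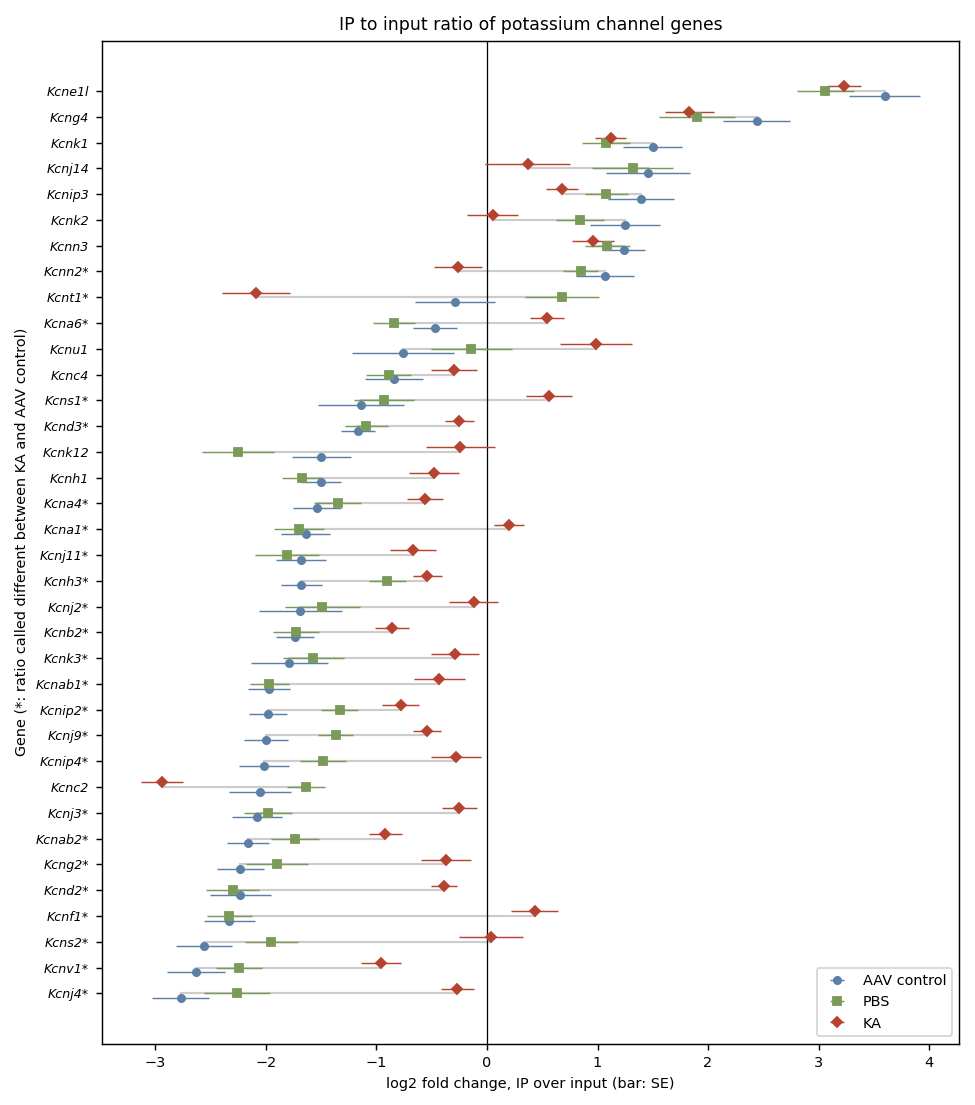
Log2 fold change of IP over input in AAV control, PBS and KA (points, with SE) for genes among those called in KA IP or in the ratio against AAV control, or higher in IP than in input in AAV control; an asterisk marks a ratio called different between KA and AAV control. Kcnk7 is left out for its counts in AAV control input. Kcnf1, Kcnj4 and Kcna1 moved from below -1.5 in both controls to between -0.27 and 0.43 in KA, and Kcnk2 and Kcnn2 moved from above 0.8 to between -0.26 and 0.05.

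Markers of other cells in the IP libraries moved in part with these genes. In IP, 10.3% of all genes tested rose and 7.67% fell against AAV control, and 19.3% rose and 20.3% fell against PBS. Among neuron markers, 2 of 6 rose in KA IP against AAV control (Snap25 by 1.50 and Nefl by 1.64), 3 of 6 rose against PBS and none fell in either, while Map2 differed by -0.02 without passing the test. Against AAV control, 3 of 5 dentate granule cell markers rose (Prox1, C1ql2 and Calb1) and none was called lower. The other dentate markers had lower means in KA IP than in AAV control IP (Dsp 0.654 and 1.50 FPKM, Lct 0.722 and 0.953 FPKM). In input, 2 of the 5 fell against AAV control and none rose. Of the CA pyramidal markers 2 rose and 2 fell of 5 in IP against AAV control, and of the interneuron markers 4 rose and 1 fell of 6. Oligodendrocyte markers summed to 1146 to 2190 FPKM in KA IP against 193 to 840 in AAV control IP. Of these markers 2 of 4 rose against AAV control and 4 of 4 against PBS. Microglia markers summed to 19.9 to 39.0 FPKM in KA IP against 8.38 to 13.2 in AAV control IP, and 3 of 6 rose against each control. No marker of these lists was at 0 in all 3 libraries of a group, and their part in the rise of the potassium channel genes in IP was not tested.

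Genes that work with potassium channels gave a mixed pattern in KA IP. Of the 4 HCN channels, which open on hyperpolarisation and pass sodium and potassium, Hcn2 rose against AAV control (2.42 ± 0.32, adjusted p = 0.00171) and the others did not pass the test. Of 15 partners tested, 4 rose and 2 fell against AAV control (10.3% and 7.67% of all genes), with a median of 0.33, and 2 rose and 3 fell against PBS (19.3% and 20.3% of all genes), with a median of -0.05. Lrrc55, a gamma subunit that eases the opening of the BK channel Kcnma1, went from 0.283, 0.259 and 0.422 FPKM in AAV control IP to 4.13, 2.68 and 4.12 in KA IP (3.62 ± 0.33, adjusted p = 0.000291), and rose in input by 1.44 ± 0.27 (adjusted p = 0.0146). Kcnma1 itself had means of 4.05 and 4.66 FPKM in IP, with no call. Cntnap2 and Ank3, which hold channels at the axon, fell by 1.03 and 1.15 on the log2 scale.

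The glial inward rectifiers that the list leaves out differed from each other. Kcnj16 fell in IP by 1.32 ± 0.19 on the log2 scale against AAV control (adjusted p = 0.00237), and by 1.18 ± 0.20 against PBS (adjusted p = 0.000621). Kcnj10 differed by 0.61 ± 0.25 (adjusted p = 0.128) from AAV control in IP and rose by 0.95 ± 0.29 against PBS (adjusted p = 0.0206). In input it rose by 1.05 ± 0.15 (adjusted p = 0.00418) and 1.08 ± 0.10 (adjusted p = 1.07e-05).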

How the data were processed

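RNA of the right hippocampus was sequenced as 18 libraries, an IP and an input library for each of 3 pools of mice in the KA, AAV control and PBS groups. The submitters' processing notes name STAR, featureCounts, edgeR and mm10, and versions are not given in the sources used here. The authors deposited for each library whole-number counts per gene symbol without normalization, and FPKM values per gene. Libraries were made with an Ultra II RNA kit, and whether counting used strand is not given in the sources used here; 34 of the 73 genes overlap a gene on the opposite strand and can include its reads.

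Counts were tested with the quasi-likelihood test of edgeR 4.0.16 (R 4.3.3) with TMM normalization, for the 15909 genes with a summed count of at least 180, and p-values were adjusted over all of them by Benjamini-Hochberg. Each comparison was fitted on its own libraries (6 libraries, or 12 for the IP to input ratio, an interaction term), without a block. Each SE is the size of the log2 fold change over the square root of its F value. Marker lists and lists of related genes hold textbook genes, and members and lists were chosen with earlier results of these data known. Gene locations are from GENCODE vM21 (GRCm38), which held all 73 genes, and the fits were tested on simulated data.

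Named genes were Kcne1l, the 10 smallest p in each direction in IP against each control, the 5 smallest in each direction in every other comparison and the gene with the highest level of each subfamily in AAV control IP and input; other names stand in full lists of called genes, in lists of markers and partners, or were picked with their values known. Same-numbered IP and input of a group share a homogenate. Residuals of same-numbered KA and AAV control libraries correlated at 0.183, 0.331 and 0.392 in IP and at 0.182, 0.248 and 0.371 in input, and these samples share a run, so that the block is given where it changes a call or count. PBS libraries share only a number with the others. No 2 libraries of a group agreed within counting noise. Alternatives were DESeq2 1.42.0, RLE normalization, an FPKM above 1 in every library, no filter, the replicate block, the sequencing run and leaving out each sample; the fit on run 1 alone was added after seeing the data. Results for some genes are not reported here.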

Additional observations from a re-analysis of the deposited data

Results flagged for a closer look

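Among the genes named for the IP to input ratio, the change between KA and a control differed between the IP and the input fraction for 11, by the interaction term of edgeR. Positive values mean a larger log2 change in IP than in input. Against AAV control and against PBS, which share the KA libraries, these were 2.74 and 2.70 for Kcnf1, 2.49 and 1.94 for Kcnj4, 1.81 and 1.83 for Kcna1 and 1.81 and 1.69 for Kcnj3. Kcnj9 was at 1.45 against AAV control and Kcnd2 at 1.86 against PBS, and the ratio of each was also called higher against the other control. Negative values were found for Kcnn2 (-1.35 and -1.17) and Kcnt1 (-1.82 and -2.84). The Kcnn2 value against AAV control did not pass the test without any 1 of the KA samples, AAV control #1 or AAV control #2 (highest adjusted p = 0.161). The Kcnt1 value against AAV control did not pass the test without KA #1, KA #2, AAV control #1 or AAV control #2 (highest adjusted p = 0.178). Against PBS negative values were also found for Kcnc2 (-1.36), Kcnk9 (-1.39) and Kcnj13 (-2.84). That of Kcnj13 did not pass without KA #2 or PBS #3 (highest adjusted p = 0.0656). The astrocyte, neuron and oligodendrocyte marker ratios, given beside the results above, moved with parts of this pattern. So did the neuron marker levels in IP and the choroid plexus marker levels in input. The part of these markers in the pattern was not tested.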

How the results depend on the processing

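Of 1373 alternative values for 133 results on single genes, 1285 kept their direction and their side of the threshold, 45 lost the call, 40 gained it and 3 changed sign. The sign changes concerned Kcne1l where it was not called: its ratio of KA against PBS went from 0.12 to -0.07 with an FPKM above 1 required and to -0.09 without PBS #3 (-0.09 to 0.41 over left-out samples), and PBS against AAV control in input went to -0.10 without AAV control #2 (up to 0.53 without #3). The cause was not tested. RLE normalization and DESeq2 moved no count of calls by more than 1.5 times.

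An FPKM above 1 in every library compared, which leaves fewer genes to test, gave 17 calls for KA against AAV control and 12 against PBS in IP, 7 against AAV control in input, 30 in AAV control, 30 in PBS and 16 in KA for IP over input, and 15 and 11 for the ratio against AAV control and PBS. Without a filter, PBS against AAV control in input gave 3. In input against AAV control, the run as a covariate gave 24 and run 1 alone 38. Leaving out each sample in turn gave 18 to 34 calls for KA against AAV control and 28 to 39 against PBS in IP, 3 to 29 and 22 to 36 in input, 0 to 7 and 0 to 19 for PBS against AAV control in IP and input, 31 to 59 in AAV control, 50 to 53 in PBS and 20 to 42 in KA for IP over input, and 11 to 32 and 17 to 29 for the ratio. With the replicate block the pairing gave 35 calls in IP and 16 in input for KA against AAV control, 59, 59 and 45 for IP over input in AAV control, PBS and KA, and 36 and 36 for the ratio. Against PBS, whose samples share only a number with KA, the block gave 33 calls in IP and 33 in input, and it gave 0 between the controls. Genes near the count minimum, such as Kcnk7 and Kcne2, had 0 to 3 counts in several libraries, and no fold is given against those.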
